A study of Mus musculus with 6 samples.

Results

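The proteasome is the cell's main protease for ubiquitin-tagged proteins, and its subunit genes were followed here in mouse 4T1 cells with and without forced expression of Limch1. Members were all protein-coding genes whose symbol starts with Psma, Psmb, Psmc, Psmd or Psme followed by a number. The annotation holds 45 such genes, and 44 of them had values among the 26094 genes of the table. Psma8, a testis-specific alpha subunit, was not analysed here. The immune subunits Psmb8, Psmb9, Psmb10, Psme1 and Psme2 made up 5 of the 44, and the other 39 were compared with them. A level of at least 1 FPKM (a fragment count normalised for transcript length and library size) in at least 3 of the 6 libraries was needed for a test, and 43 members passed. The 1 that did not was Psmb11, the catalytic subunit of the thymic proteasome, which was listed at 0 in 5 libraries and at 0.01 FPKM in Vector replicate 3. The symbol rule also caught Psme2b, a single-exon copy of Psme2, and Psmc3ip, a partner of meiotic recombination factors that is not a proteasome subunit.

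4T1 cells come from a mouse mammary carcinoma and stand in for triple-negative breast cancer in many studies. Cells infected with a PLVX-ires-neo lentivirus carrying mouse LIMCH1 (group Limch1_OE, 3 libraries) were compared with cells carrying the empty vector (group Vector, 3 libraries). Both groups were infected and antibiotic-selected from 48 h after infection, and both were grown in RPMI 1640 with 10% serum, penicillin and streptomycin. The promoter that drives LIMCH1, and whether replicate libraries represent separate cultures, are not given in the labels. No uninfected cells were analysed here.

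The proteasome core is a barrel of alpha and beta rings in which 3 of the beta subunits carry the proteolytic sites, and a cap of ATPases and non-ATPase subunits recognises, unfolds and feeds in ubiquitinated proteins. Interferon signalling induces Psmb8, Psmb9 and Psmb10, which take the places of Psmb5, Psmb6 and Psmb7 in newly assembled cores, and the activator PA28, a ring of Psme1 and Psme2 proteins. The resulting immunoproteasome is known for cutting proteins into peptides that suit presentation on MHC class I, and the transcription factor NRF1, encoded by Nfe2l1, drives the constitutive subunit genes as a set when proteasome activity falls short.

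Limch1 itself was listed at 0.10 to 0.25 FPKM in Vector and 23.31 to 25.69 FPKM in Limch1_OE, the direction that the labels give. FPKM summed over all genes ran from 414837 to 416242 in Vector and from 421767 to 425064 in Limch1_OE, and the read depth behind the values is unknown. The 6 epithelial markers checked (Epcam, Cdh1 and 4 keratins) were all tested, and their summed level was 1473 to 1543 FPKM in Vector and 1454 to 1605 FPKM in Limch1_OE, with Epcam (-0.44) and Cdh1 (-0.18) lower and Krt7 (0.37) higher by the test described below and the other 3 not passing. The leukocyte markers with values (5 of 11) summed to 0 to 0.04 FPKM in Vector and 0 to 0.15 FPKM in Limch1_OE, with the pan-leukocyte gene Ptprc at 0 in 5 libraries and 0.01 FPKM in the other. Fibroblast markers (4 of 7 with values) summed to at most 0.07 and 0.10 FPKM in the same groups, and endothelial markers (5 of 5) to 0.37 to 0.43 FPKM in Vector and 0.15 to 0.32 FPKM in Limch1_OE. In bulk RNA, fewer cells of a type and less RNA per cell cannot be told apart.

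All 5 immune subunits were lower in Limch1_OE, whereas the other members had differences of either sign, from -0.79 for Psme2b and -0.49 for Psmb6 to 0.33 for Psmc6. Tests were made with limma on log2(FPKM + 1) across all 11842 tested genes at a Benjamini-Hochberg adjusted p under 0.05, and a log2 fold change below is Limch1_OE minus Vector on that scale. Among all tested genes 34.6% passed, 14.4% as lower and 20.2% as higher, with a median log2 fold change of 0.04. The immune subunits gave 5 lower and 0 higher of 5, with a median of -0.71. The other members gave 5 lower, 8 higher and 25 that did not pass of 38, with a median of -0.01. These 13 calls of 38 are near the 34.6% of the whole table, and the median absolute log2 fold change of the 38 (0.13) lay beside that of all tested genes (0.16). The FPKM ranges of both groups did not overlap for 5 of 5 immune subunits and 20 of 38 other members, where 49.1% of all tested genes had no overlap.

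**Figure D1:**
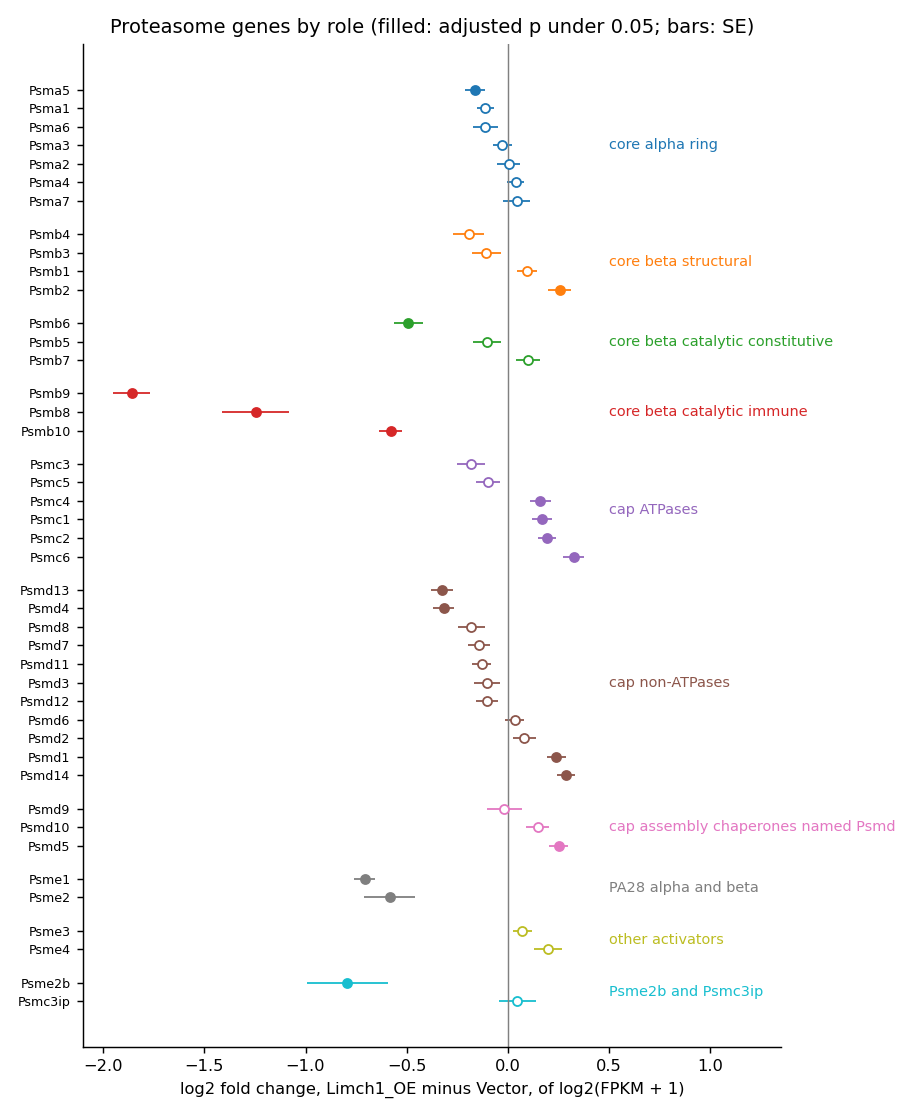
Log2 fold change (Limch1_OE minus Vector, on log2(FPKM + 1)) of the 43 tested members, ordered by role, with bars for the standard error and filled points for an adjusted p under 0.05. The 5 immune subunits lie between -1.86 and -0.58, all filled, while the subunits of the constitutive core and the cap lie between -0.49 and 0.33.

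Among the immune catalytic subunits the difference was largest for Psmb9, the immune subunit at the caspase-like site. Its level was 16.14, 16.95 and 18.59 FPKM in Vector and 3.49, 4.07 and 4.54 FPKM in Limch1_OE. Every Vector library was above every Limch1_OE library, and the means were 17.2 ± 1.25 and 4.03 ± 0.526 FPKM (SD, n = 3 each), a ratio of 4.27. On the log2 scale Psmb9 fell by 1.86 (SE 0.09, limma adjusted p = 9.61e-07). Psmb9 lies on chromosome 17 (mm10, 34181987 to 34187764, minus strand), and its first 212 bases overlap Tap1 on the opposite strand. Tap1, a peptide transporter subunit that fell by 2.07 on the log2 scale (limma adjusted p = 2.46e-08), and Psmb9 cannot be told apart over those bases, because the labels do not say whether counting used strand. The ratio of Psmb9 to Tap1 was 0.288 ± 0.0155 in Vector and 0.299 ± 0.0255 in Limch1_OE, and these ranges overlapped.

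Psmb8 encodes the immune subunit at the chymotrypsin-like site. It was listed at 51.95, 57.25 and 52.67 FPKM in Vector and 16.78, 30.13 and 21.38 FPKM in Limch1_OE. For this sum over all listed transcripts the groups stood well apart, and Limch1_OE replicate 2 was the highest of its group. Means of 54.0 ± 2.88 and 22.8 ± 6.78 FPKM (SD, n = 3 each) gave a ratio of 2.37, and Psmb8 fell by 1.25 on the log2 scale (SE 0.17, limma adjusted p = 0.00078). Psmb8 lies near Psmb9, at 34197721 to 34201454 of chromosome 17 on the plus strand, with Tap1 between them.

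The sum for Psmb8 was spread over several transcripts that did not behave alike between libraries. Its principal coding transcript, Psmb8-201, was listed at 21.85, 19.93 and 20.58 FPKM in Vector and 6.77, 7.26 and 8.26 FPKM in Limch1_OE. That is a ratio of means of 2.80 with tight groups (20.8 ± 0.977 and 7.43 ± 0.759 FPKM; exact two-sided permutation p = 0.1, the smallest that 3 against 3 libraries allow). The short coding transcript Psmb8-203 was at 22.37 FPKM in Limch1_OE replicate 2 and at 0 to 2.74 FPKM in the other libraries. In that same library the retained-intron transcript Psmb8-206 was listed at 0, against 8.11 and 10.76 FPKM in the other Limch1_OE libraries and 20.61 to 30.8 FPKM in Vector. Retained-intron transcripts thus made up 1.66% of the Psmb8 sum in Limch1_OE replicate 2 and 52.7% to 60.9% in the other 5 libraries. Summed over coding transcripts only, Psmb8 was at 23.1, 22.7 and 20.6 FPKM in Vector and 7.49, 29.6 and 10.1 FPKM in Limch1_OE. These groups overlapped, with a ratio of means of 1.4, and Limch1_OE replicate 2 was the highest of all libraries. Without that library the log2 fold change was -1.46 (limma adjusted p = 3.86e-05), and from Psmb8-201 alone it was -1.37 (adjusted p = 0.000232). From the most abundant transcript alone, Psmb8-206, it was -2.51 and did not pass (adjusted p = 0.125).

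**Figure D2:**
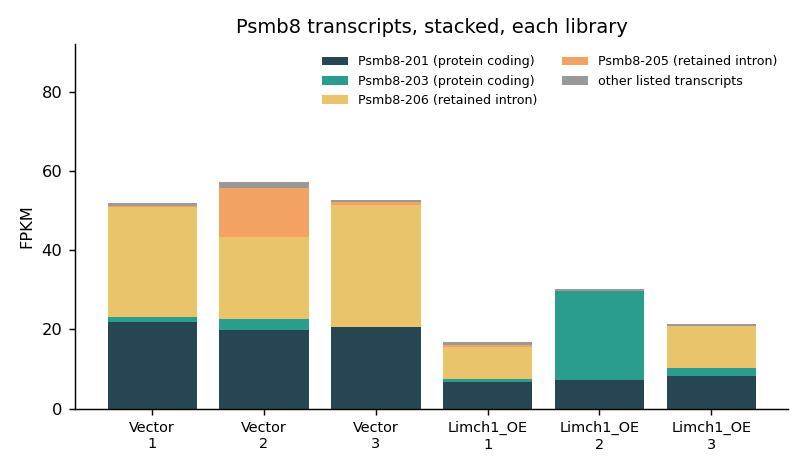
FPKM of the Psmb8 transcripts in each library, stacked. The principal transcript Psmb8-201 is at 19.93 to 21.85 FPKM in the Vector libraries and 6.77 to 8.26 FPKM in the Limch1_OE libraries, and Limch1_OE replicate 2 differs from the rest in its share of Psmb8-203.

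Psmb10, the immune subunit at the trypsin-like site, showed the smallest difference of the 3. Its values were 50.39, 54.03 and 49.84 FPKM in Vector and 32.19, 34.53 and 35.68 FPKM in Limch1_OE. No Limch1_OE library reached any Vector library, and the means of 51.4 ± 2.28 and 34.1 ± 1.78 FPKM (SD, n = 3 each) stood at a ratio of 1.51. On the log2 scale it fell by 0.58 (SE 0.06, limma adjusted p = 0.000123). Unlike Psmb8 and Psmb9, the gene lies apart on chromosome 8 (105935735 to 105938444, minus strand), and its tested neighbours within 20000 bases, Pskh1 (-0.10, adjusted p = 0.29) and Slc12a4 (0.14, adjusted p = 0.105), did not pass.

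Their constitutive counterparts differed less. Psmb6, the constitutive subunit of the caspase-like site, fell by 0.49 on the log2 scale (SE 0.07, limma adjusted p = 0.0014). Its 6 values were 96.45, 98.21 and 100.11 FPKM in Vector and 61.55, 72.28 and 75.82 FPKM in Limch1_OE. This was the largest decrease of any constitutive core or cap subunit. Psmb5, the chymotrypsin-like subunit, was at 42.17, 42.59 and 42.46 FPKM in Vector and 36.23, 38.41 and 44.11 FPKM in Limch1_OE (log2 fold change -0.10, adjusted p = 0.286). Psmb7, the trypsin-like subunit, was at 73.88, 73.54 and 77.81 FPKM against 74.05, 82.81 and 85.34 FPKM (0.10, adjusted p = 0.221). For both the groups overlapped.

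Set against the subunit it replaces, each immune subunit, as a sum over all listed transcripts, was lower in every Limch1_OE library. FPKM is per length, so levels of different genes can be set side by side. The Psmb8 to Psmb5 ratio was 1.23, 1.34 and 1.24 in Vector and 0.463, 0.784 and 0.485 in Limch1_OE. From the principal transcripts alone, Psmb8-201 to Psmb5-201, it was 0.541, 0.482 and 0.485 against 0.192, 0.191 and 0.189. A ratio above 1 in Vector thus depends on the retained-intron transcripts in the Psmb8 sum. Over all coding transcripts, Limch1_OE replicate 2 had more Psmb8 (29.6 FPKM) than any Vector library (20.6 to 23.1 FPKM). Its Psmb5 (38.41 FPKM) was below every Vector value. On that coding sum its ratio therefore lies above every Vector ratio, and the groups overlap. The Psmb9 to Psmb6 ratio was 0.167, 0.173 and 0.186 against 0.0567, 0.0563 and 0.0599, and was the lowest of the 3 in both groups. Psmb10 to Psmb7 stood at 0.682, 0.735 and 0.641 against 0.435, 0.417 and 0.418. The Vector means exceeded the Limch1_OE means by factors of 2.2, 3.04 and 1.62. From the sums over all listed transcripts, none of the 3 groups of ratios overlapped. Each exact two-sided permutation test of these ratios gave p = 0.1, also after Benjamini-Hochberg adjustment over the 3, which is the smallest p possible. Of the FPKM of all 6 catalytic genes, the immune genes made up 36.2% ± 1.05 in Vector and 24.2% ± 1.72 in Limch1_OE (SD, n = 3 each). This share uses the Psmb8 sum, 55.6% to 60.9% of which came from retained-intron transcripts in Vector, so it is not a share of coding transcripts.

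**Figure D3:**
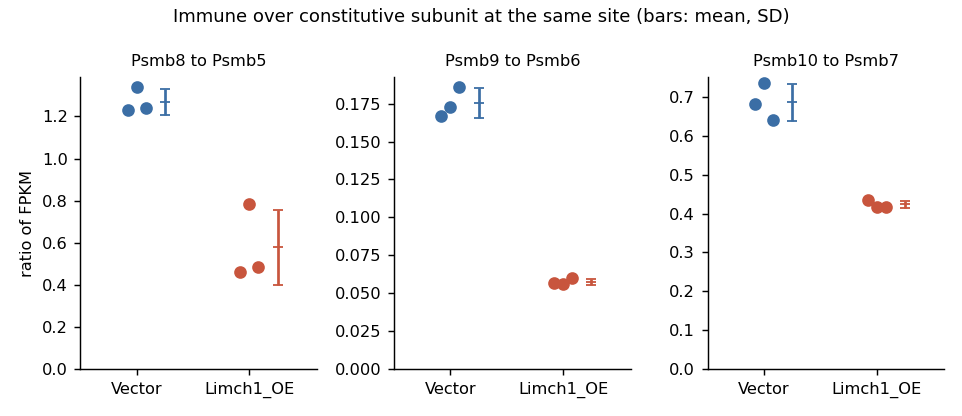
Ratio of each immune catalytic subunit to the constitutive subunit of the same site, from FPKM summed over all listed transcripts, by library (points) with the group mean (bar) and SD. All 3 ratios are lower in each Limch1_OE library than in any Vector library, and Psmb8 to Psmb5 falls from a mean of 1.27 to 0.577.

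A processed pseudogene, Gm3375, is 98.9% identical to the coding sequence of Psmb5 and was listed at 41.1 to 50.2 FPKM, as much as Psmb5 itself. How reads that fit both were assigned is not stated in any source at hand, so the level of Psmb5 is uncertain. The immune share of catalytic FPKM above left Gm3375 out and is uncertain with it. Against the sum of Psmb5 and Gm3375, the Psmb8 ratio was 0.603, 0.617 and 0.587 in Vector and 0.217, 0.370 and 0.228 in Limch1_OE, a factor of 2.22.

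Both PA28 subunits were lower in Limch1_OE. Psme1, the alpha subunit, was at 132.97, 139.78 and 132.21 FPKM in Vector and 77.72, 86.8 and 82.34 FPKM in Limch1_OE. These groups lay far apart, at 135 ± 4.17 and 82.3 ± 4.54 FPKM (SD, n = 3 each), a ratio of 1.64. Psme1 fell by 0.71 on the log2 scale (SE 0.05, limma adjusted p = 2.15e-05). Psme2, the beta subunit, was at 119.03, 90.58 and 129.36 FPKM in Vector and 68.12, 84.01 and 71.48 FPKM in Limch1_OE. Vector replicate 2 was low here, only just above the highest Limch1_OE library, and Psme2 fell by 0.58 on the log2 scale (SE 0.13, limma adjusted p = 0.00825). Its call was lost with no filter on low values (adjusted p = 0.053), from principal transcripts only (0.053) and from most abundant transcripts only (0.061).

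The spread of Psme2 sat beside an opposite spread of Psme2b. The coding sequence of Psme2 (chromosome 14, 55587441 to 55591113, 11 exons) and that of Psme2b (chromosome 11, 48945354 to 48946190, 1 exon) are both 717 bases long and differ at 5 of them, an identity of 99.3%, with a shared run of 311 bases. Coding positions 311 to 490, counted from the start codon on the coding strand, hold 3 of the 5 differing bases, shown in capitals, and are printed from the GENCODE M21 transcripts to show how little sequence separates the genes:
Psme2: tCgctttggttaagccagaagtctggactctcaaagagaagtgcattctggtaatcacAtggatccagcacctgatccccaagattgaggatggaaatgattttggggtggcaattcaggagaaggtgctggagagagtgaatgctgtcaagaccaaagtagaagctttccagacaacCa
Psme2b: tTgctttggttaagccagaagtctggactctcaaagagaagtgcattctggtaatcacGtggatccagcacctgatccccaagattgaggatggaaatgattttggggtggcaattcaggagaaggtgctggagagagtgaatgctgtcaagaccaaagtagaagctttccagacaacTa

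Psme2b was listed at 39.8, 66.07 and 35.2 FPKM in Vector and 28.38, 22.18 and 26.88 FPKM in Limch1_OE (log2 fold change -0.79, SE 0.20, limma adjusted p = 0.016, and 0.0567 without Limch1_OE replicate 2). Its call was also lost with no filter on low values (adjusted p = 0.0859), from most abundant transcripts only (0.0768) and from principal transcripts only (0.0677), and without Vector replicate 2 the log2 fold change was -0.53. Vector replicate 2 had the highest Psme2b and the lowest Psme2 of its group, and Limch1_OE replicate 2 had the lowest Psme2b and the highest Psme2. Psme2b made up 42.2% of the pair in Vector replicate 2 and 20.9% to 29.4% in the other 5 libraries. Added together the pair was at 158.8, 156.6 and 164.6 FPKM in Vector and 96.5, 106.2 and 98.4 FPKM in Limch1_OE. The means of the sum were 160.0 ± 4.09 and 100.4 ± 5.14 FPKM (SD, n = 3 each), against 113 ± 20.1 and 74.5 ± 8.37 FPKM for Psme2 alone, and the ratio of the summed means was 1.59 (exact two-sided permutation p = 0.1, the smallest possible). Fitted as 1 gene, the pair fell by 0.67 on the log2 scale (limma adjusted p = 2.32e-05), so the separate values of Psme2 and Psme2b are uncertain while their sum is lower. Psme1 to the summed pair was 0.837, 0.892 and 0.803 in Vector and 0.805, 0.817 and 0.837 in Limch1_OE, and these ranges overlapped.

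**Figure D4:**
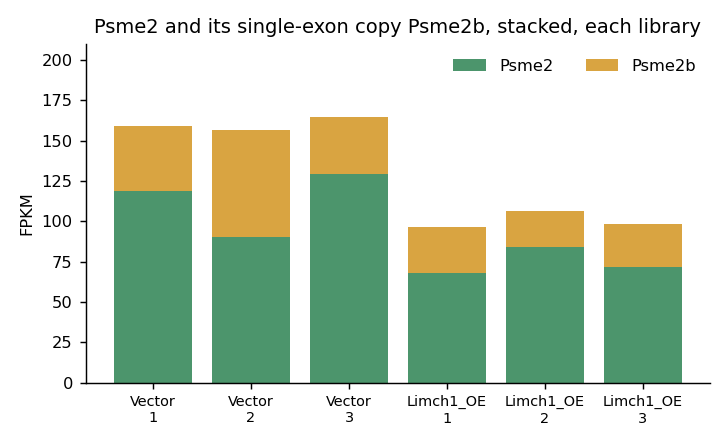
FPKM of Psme2 and of its single-exon copy Psme2b in each library, stacked. The stacks reach 156.6 to 164.6 FPKM in Vector and 96.5 to 106.2 FPKM in Limch1_OE, while the division between the genes shifts from library to library.

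Of the 8 tested genes within 20000 bases of an immune subunit, 5 passed as lower and 3 did not pass, against 14.4% lower over all tested genes. Beside Psmb8 and Psmb9 these were Tap1 and Tap2, which together form the peptide transporter, and Tap2 fell by 0.75 (limma adjusted p = 8.98e-05). Psme1 and Psme2 lie close together on chromosome 14 (Psme1 at 55578123 to 55581529, plus strand) and share Rnf31, a subunit of the linear ubiquitin ligase, which fell by 0.97 (adjusted p = 7.69e-06), and Emc9, which fell by 0.75 (adjusted p = 0.00152), as near genes. Irf9, a part of the interferon-activated factor ISGF3, lies within the window of Psme2 and fell by 1.18 (adjusted p = 3.19e-07), whereas Dcaf11 did not pass (-0.06, adjusted p = 0.56). Psme2b lies inside Gm12185, which fell by 0.99 (adjusted p = 0.000227), and overlaps 9930111J21Rik1, which fell by 1.65 (adjusted p = 4.24e-06), both on its own strand. Means in Vector and Limch1_OE were 1.26 and 0.14 FPKM for Gm12185, 5.23 and 0.99 for 9930111J21Rik1, and 1.9 and 0.72 for Emc9. The Limch1_OE means lie below the 1 FPKM needed for a test, so these genes were tested mainly through their Vector levels. Emc9 is among the 5 counted as lower above.

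The other activators did not pass the test. Psme3, which forms the nuclear PA28 ring, was at 75.77 to 79.22 FPKM in Vector and 78.6 to 83.93 FPKM in Limch1_OE (log2 fold change 0.07, limma adjusted p = 0.257). Psme4, the single-chain activator PA200, was at 18.15 to 19.11 FPKM in Vector and 19.83 to 23.8 FPKM in Limch1_OE, without overlap (0.20, adjusted p = 0.0536). Psme3 and Psme4 had values on the other side of 0 from Psme1 and Psme2.

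In the constitutive core, 2 of 14 subunits passed as lower and 1 as higher, against 14.4% and 20.2% of all tested genes, with a median log2 fold change of -0.06. The alpha ring, which forms the gate of the barrel, had 1 of 7 lower and 0 higher. That was Psma5, at 89.91, 83.33 and 89.11 FPKM in Vector and 74.79, 80.11 and 79.14 FPKM in Limch1_OE (-0.16, limma adjusted p = 0.0342). Its call did not hold in 11 of the 18 alternative fits, among them those without any 1 library other than Vector replicate 2. Psma1 (-0.11), Psma6 (-0.11), Psma3 (-0.03), Psma2 (0.01), Psma4 (0.04) and Psma7 (0.04) did not pass, with adjusted p from 0.074 to 0.952. Psma3 is close to Gm13835, a processed pseudogene identical over 86.5% of its coding sequence and listed at 42.1 to 51.0 FPKM, so its own level of 39.18 to 42.22 FPKM is uncertain. The signs of Psma2, Psma3 and Psma7 turned under some alternative settings.

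Of the 4 beta subunits without a proteolytic site, Psmb2 rose and the other 3 did not pass. Psmb2 was at 79.12, 88.09 and 85.84 FPKM in Vector and 100.4, 96.19 and 106.39 FPKM in Limch1_OE (0.26, SE 0.06, limma adjusted p = 0.00936). Psmb1 was on the same side (0.10, adjusted p = 0.154), and Psmb3 (-0.11, adjusted p = 0.286) and Psmb4 (-0.19, adjusted p = 0.0823) on the other. FPKM summed over the 14 constitutive core subunits was 1295.4, 1310.5 and 1365.0 in Vector and 1198.1, 1286.7 and 1320.1 in Limch1_OE, which overlapped, with Limch1_OE replicate 1 the lowest library. The 5 immune subunits summed to 370.5, 358.6 and 382.7 FPKM against 198.3, 239.5 and 215.4 FPKM, without overlap.

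Among the 6 cap ATPases, which unfold substrates, 4 rose and 0 fell, against 20.2% higher and 14.4% lower over all tested genes, with a median log2 fold change of 0.17. The highest was Psmc6, at 65.83, 63.55 and 66.33 FPKM in Vector and 87.09, 79.97 and 79.35 FPKM in Limch1_OE (0.33, SE 0.05, limma adjusted p = 0.00169). Psmc2 (0.19, adjusted p = 0.0122), Psmc1 (0.17, adjusted p = 0.0282) and Psmc4 (0.16, adjusted p = 0.0377) rose less. None of the 4 overlapped between groups, where 49.1% of all tested genes had no overlap, and the same values had already passed the test. Psmc3 (-0.18, adjusted p = 0.079) and Psmc5 (-0.10, adjusted p = 0.243) lay on the other side of 0 and did not pass. The calls of Psmc1 and Psmc4 were lost when each library was rescaled to the same FPKM sum and under median ratio scaling, which left 2 of 6. Principal transcripts only left Psmc1 and Psmc6, and most abundant transcripts only left Psmc6, 1 of 6 (Psmc2 adjusted p = 0.318 and 0.335). Psmc2 also lost its call without Vector replicate 1 or 2, Psmc1 without Vector replicate 2 or 3 or Limch1_OE replicate 2 or 3, and Psmc4 without any 1 library other than Limch1_OE replicate 1.

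Of the 11 non-ATPase cap subunits, 2 passed as lower, 2 as higher and 7 did not pass, against 14.4% lower and 20.2% higher over all tested genes, with a median of -0.10. Psmd14, the deubiquitinase that removes ubiquitin chains before degradation, was at 68.35, 67.66 and 68.25 FPKM in Vector and 83.11, 86.56 and 80.53 FPKM in Limch1_OE. The groups were well separated for a small change (0.29, SE 0.04, limma adjusted p = 0.00168). Psmd1, the large scaffold subunit, rose from 63.89, 64.39 and 65.52 FPKM to 76.61, 79.94 and 73.18 FPKM (0.24, adjusted p = 0.0052). Psmd4, a ubiquitin receptor, went the other way. It was at 190.96, 195.1 and 189.7 FPKM in Vector and 143.51, 157.23 and 161.63 FPKM in Limch1_OE (-0.32, SE 0.05, limma adjusted p = 0.00258). Psmd13, a cap lid subunit, fell from 50.92, 48.76 and 52.23 FPKM to 37.79, 40.97 and 42.03 FPKM (-0.32, adjusted p = 0.00258). Of its bases, 342 overlap Sirt3 on the opposite strand. Another 1194 overlap the processed pseudogene Gm15542 on the same strand, which averaged 8.725 FPKM. The call of Psmd4 was lost from principal transcripts only (adjusted p = 0.241).

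The other 7 non-ATPase subunits ranged from -0.18 for Psmd8 (adjusted p = 0.0715), the most abundant member at a mean of 231 FPKM in Vector, to 0.08 for the scaffold subunit Psmd2 (adjusted p = 0.295). Between them stood Psmd7 (-0.14), Psmd11 (-0.13), Psmd3 (-0.10), Psmd12 (-0.10) and Psmd6 (0.03). FPKM summed over the 17 cap subunits was 1675.6, 1642.8 and 1696.1 in Vector and 1563.5, 1663.7 and 1693.0 in Limch1_OE, and the groups overlapped. The other 3 genes with Psmd names encode chaperones of cap assembly that leave the finished particle. Psmd5 rose from 19.54, 19.12 and 19.63 FPKM to 23.01, 23.1 and 23.95 FPKM (0.25, SE 0.05, limma adjusted p = 0.0045), a call lost from principal transcripts only (adjusted p = 0.13), while Psmd10 (0.15, adjusted p = 0.0733) and Psmd9 (-0.02, adjusted p = 0.893) did not pass. Psmc3ip, outside the particle, was at 11.43 to 12.41 FPKM in Vector and 10.51 to 13.69 FPKM in Limch1_OE (0.05, adjusted p = 0.724).

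**Figure D5:**
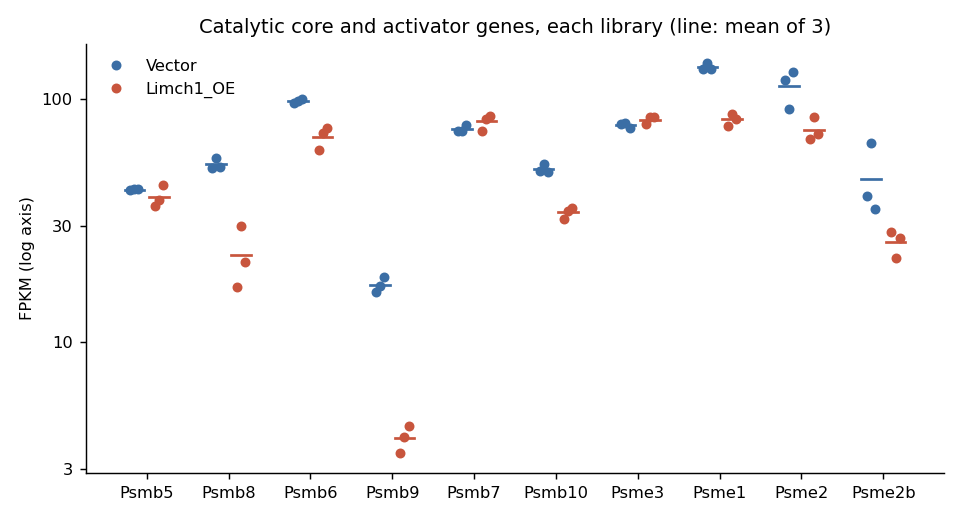
FPKM of the catalytic core genes (Psmb5 to Psmb10) and of Psme3, Psme1, Psme2 and Psme2b in each library, on a log axis. Vector and Limch1_OE libraries are in different colours, with a line at each group mean. The groups overlap for Psmb5, Psmb7 and Psme3 and lie apart for Psmb6, Psme2b and the immune subunits. Psmb9 is the lowest at 3.49 to 18.59 FPKM.

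Nearly identical copies elsewhere in the genome bear on how firmly single members can be read. Of the members, 15 have at least 1 copy with 90% identity or more over at least 50% of the coding sequence, 30 pairs of a member and a copy in all, in which Psme2 and Psme2b count as copies of each other, and in 10 pairs, of 8 members, the copy averaged at least 1 FPKM. The highest were Gm13835 for Psma3, Gm3375 for Psmb5 and Psme2b for Psme2, and the copies of Psma5, Gm8394 and Gm12989, averaged 5.03 and 7.29 FPKM. Psmb8, Psmb9 and Psmb10 had no such copy.

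For the members other than the immune subunits, Psme2b and Psmc3ip among them, log2 fold change was also set beside base composition, which the symbol rule did not use. Over the 38 other members, log2 fold change and the GC content of the most abundant transcript had a Spearman correlation of -0.48, against -0.12 over 11775 tested genes. With transcript length it was 0.36 against 0.02. Of these, the 8 that passed as higher had a median GC content of 47.8% (37.0% to 53.5%). The 5 that passed as lower, Psme2b among them, had 53.4% (49.2% to 55.8%), and the other 25 had 49.7% (39.4% to 58.3%). The ranges overlapped. All points come from the same 6 libraries, and the part of base composition in the calls was not tested.

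Promoter windows from RefSeq (GRCm38.p6, 250 bases before to 50 after the start) were matched for 38 of the 44 members and searched on both strands. A member was counted once if any of its windows held a match, whereas the percentages below are per window. The interferon-stimulated response element, searched as GAAA and GAAA with any 2 bases between them, was found in 4 members (Psmb3, Psmd4, Psmd9 and Psme1) and in 3.44% of 32851 windows. The gamma-activated site, searched as TTCNNNGAA, was found in Psmb8 and Psmd2 and in 8.30% of windows. Of the immune subunits Psme1 and Psmb8 thus held 1 match each to these interferon-linked motifs. The antioxidant response element core that NRF1 also reads, searched as TGACNNNGC, was found in 6 members (Psmb5, Psmb6, Psmc6, Psmd12, Psmd9 and Psme4), none of them immune, and in 12.4% of windows. The ETS-type motif CCGGAAG was in 13 members, none of them immune, and in 8.86% of windows. The GC box GGGCGG was in 22 members, 3 of them immune (Psmb9, Psme1 and Psme2), and in 35.7% of windows. CCAAT was in 15 members, 1 of them immune (Psmb9), and in 37.4% of windows. The RefSeq starts lie downstream of the GENCODE starts of the main coding transcripts, by 434 bases for Psmb9, 405 for Psmb8 and 134 for Psme1. A window around another start would hold other letters. The whole windows of Psmb8 and Psmb9 lie after these GENCODE starts, so the sequence before them was not searched. The Psmb8 and Psme1 matches printed below also lie after the GENCODE start. The windows below show the interferon-linked matches of Psme1 and Psmb8 and the antioxidant element matches of 3 constitutive members. These 3 lie on either side of the comparison, Psmb6 as the lower, Psmc6 as the higher and Psmb5 as not passing, with matched letters in capitals:
Psme1, interferon-stimulated response element on the opposite strand, chr14:55578493-55578522, plus strand: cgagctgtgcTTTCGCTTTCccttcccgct
Psmb8, TTCNNNGAA, chr17:34198088-34198117, plus strand: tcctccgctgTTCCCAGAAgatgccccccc
Psmb6, TGACNNNGC, chr11:70525338-70525367, plus strand: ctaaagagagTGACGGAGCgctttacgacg
Psmc6, TGACNNNGC on the opposite strand, chr14:45329587-45329616, plus strand: ccagccagtaGCTAAGTCAggcattgctca
Psmb5, TGACNNNGC, chr14:54618023-54618052, minus strand: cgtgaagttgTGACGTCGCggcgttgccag

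Psmb6, Psmc6 and Psmb5 share the antioxidant element's letters and had log2 fold changes of -0.49, 0.33 and -0.10. A match is a description of letters in these windows only.

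Genes that work before, on or after the proteasome were read from the same fit by list. Regulators of the immune subunits had 5 lower and 2 higher of 9, with a median log2 fold change of -0.37, where 14.4% of all tested genes were lower and 20.2% higher. Stat2, a part of the interferon-activated factor ISGF3, fell by 2.07 (limma adjusted p = 8.76e-09), Irf9 by 1.18 (adjusted p = 3.19e-07), and Nlrc5, the transactivator of MHC class I genes, by 0.68 (adjusted p = 0.000158). The steps of class I presentation after the proteasome had 7 lower and 0 higher of 9 with a median of -0.56, and B2m, the class I light chain, fell by 1.04 (adjusted p = 6.46e-07) and the loading factor Tapbp by 0.62 (adjusted p = 0.000188). Of the interferon-linked modifiers, all 3 tested passed as lower. Isg15, a ubiquitin-like protein, fell by 3.55 (adjusted p = 2.27e-08), its E1 enzyme Uba7 by 1.48 (adjusted p = 1.04e-06) and the adaptor Nub1 by 0.30 (adjusted p = 0.0011).

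The general machinery around the proteasome moved little. Assembly factors had 0 lower and 1 higher of 6, which was Psmg4, a core assembly chaperone (0.28, limma adjusted p = 0.0279). Proteins bound to the particle had 1 lower of 8, the deubiquitinase Uchl5 (-0.24, adjusted p = 0.0111). Ubiquitin genes and shuttles had 2 lower of 10, the ubiquitin precursor Ubb (-0.28, adjusted p = 0.00651) and the shuttle Ubqln4 (-0.19, adjusted p = 0.0263). In the p97 and NRF1 list 1 of 10 was lower, Sel1l, a scaffold of the endoplasmic reticulum ubiquitin ligase (-0.21, adjusted p = 0.0191), and Nfe2l1 itself was at 202.44 to 221.47 FPKM in Vector and 217.98 to 224.78 FPKM in Limch1_OE (0.08, adjusted p = 0.228). In each of these 4 lists the share called was below the 34.6% of all tested genes.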

How the data were processed

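The authors deposited FPKM per transcript for 6 libraries. fastp 0.23.2, STAR 2.7.10, featureCounts 2.0.1, StringTie 2.2.1 and mm10 are named, per the submitters' processing notes. Annotation release, strand use and handling of multiply matching reads were not given in the sources used here. Low values showed no whole-read steps (at most 26.0% of values within 0.1 of one), so depth is unknown and no count test or counting interval was used.

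Listed transcripts were summed per gene. GENCODE M21 matched 26033 of 26094 identifiers. Genes reaching 1 FPKM in 3 or more libraries were fitted with limma 3.58.1 in R 4.3.3 (lmFit, then trended eBayes) on log2(FPKM + 1), two-sided, Benjamini-Hochberg adjusted over 11842 genes, threshold 0.05. The pseudocount understates changes of low genes. Ratios were compared by exact two-sided permutation over libraries. P-values reflect only differences among these libraries, whose spread may be technical. Copies were found with blastn 2.17.0. The limma step was checked on simulated data.

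All members were named, and from each other list up to 4 genes past the threshold with the largest change, besides genes named for position, for a copy or as the NRF1 gene. A gene of the regulator list is not reported here. Members and lists were chosen with earlier results of these data known. Paaf1, Ubd and Psma8 were not analysed here. Alternatives covered pseudocount, filter, scaling, transcript choice, intensity trend, replicate block and leaving out each library. Chosen after seeing the data were principal transcripts only, near-identical copies added and the position window of 20000 bases. The planned tests were the limma fit and the catalytic pair ratios. Outside that plan were the permutation tests of Psmb8-201 and of Psme2 with Psme2b, and the ratio with Gm3375. The correlations with base composition and length and the motif search were also outside it.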

Additional observations from a re-analysis of the deposited data

How the results depend on the processing

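Counts in the report are 4094 of all tested genes, 5 immune subunits lower, and 13 other members (5 lower, 8 higher). The 5 immune subunits passed as lower in each setting tried, and when any 1 library was left out, except 4 with no filter on low values (without Psme2), 4 from principal transcripts only (without Psme2), and 3 from the most abundant transcript (without Psmb8 and Psme2). The most abundant transcript gave 1996 calls in all and 6 other members (2 lower, 4 higher), and principal transcripts gave 1965 and 7 (2 lower, 5 higher). Other members lower were 3 with no filter and 11 under median ratio scaling, which gave 6 higher. Under median ratio scaling 51.9% of all calls were lower, against 41.7%. Quantile normalization gave 4 other members lower and 11 higher, and rescaling to the same sum gave 7 lower and 6 higher. The cause of these shifts was not tested. Leaving out single libraries gave 2797 to 3693 calls in all, 9 to 17 other members, 3 to 9 lower (3 without Limch1_OE replicate 2, 9 without Limch1_OE replicate 3) and 5 to 10 higher (5 without Vector replicate 2); ratio factors were 2.0 to 2.68 (Psmb8), 2.95 to 3.11 (Psmb9) and 1.56 to 1.67 (Psmb10). The Psmb8 to Psmb5 factor was 4.01 from the most abundant transcript and 2.63 from principal transcripts. The most abundant Psmb8 transcript is the retained-intron Psmb8-206, listed at 0 in Limch1_OE replicate 2. Psmb8 did not pass from that transcript (limma adjusted p = 0.125).

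Signs turned only for members that had not passed. Psma2 was -0.021 after rescaling to the same sum, -0.032 under median ratio scaling and -0.042 to 0.035 over the fits without 1 library; Psma3 was 0.003 under quantile normalization, 0.19 from the most abundant or principal transcripts and -0.046 to 0.006 over those fits. Psma7 was -0.059 from either transcript choice and -0.019 to 0.116, Psmd9 -0.103 to 0.067, Psmc3ip -0.023 to 0.153, and Psmd6 was -0.004 under median ratio scaling.

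With the replicate number as a block, 3808 genes and 13 other members (6 lower, 7 higher) passed; 16 of the 18 member calls held, Psma5 and Psmc1 were lost, and Psmb4 and Psmc3 were gained. Deviations of same-numbered libraries from their group means had correlations of -0.002, 0.046 and 0.059, and those of differently numbered libraries ran from -0.067 to 0.027. The labels do not say whether same-numbered libraries shared a culture or preparation. With 3 libraries per group these correlations cannot decide it.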
